A study of Mus musculus with 8 samples.

Results

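The cytosolic ribosomal protein genes of mouse blood cell precursors were examined in sorted pre-B cells and in hematopoietic precursors lacking the DIDO3 isoform of Dido1. Members were taken by symbol: Rpl or Rps followed by a number, with an optional a, x, y or l, or Rplp0, Rplp1, Rplp2 or Rpsa, without the Rps6k kinases and without symbols marked as pseudogenes. The rule found 82 genes, 50 coding for proteins of the large (60S) subunit and its stalk and 32 for the small (40S) subunit. Of these, 70 had a mean of at least 1 TPM (transcripts scaled to a fixed library total) and were tested among 9893 gene sums. The symbol of Rps4l, which carries no pseudogene mark, belongs to a gene that the GENCODE annotation lists as a transcribed processed pseudogene, and it was kept as the rule states.

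All mice were C57BL/6. Dido1∆E16 animals carried 1 deleted and 1 floxed exon 16 of Dido1, the last exon and the one particular to DIDO3, an R26R-EYFP reporter and iCre driven by the Vav1 promoter, which acts in blood cells from their early stages on. The controls, called WT, were littermates with 1 floxed and 1 wild-type allele and the same reporter and iCre, so Cre activity and the reporter were shared by both genotypes. RNA-seq was made from sorted pre-B cells (B220+ and IgM-, among other markers) with 2 libraries per genotype, each from a pool of mice, and Omni-ATAC-seq, which maps open chromatin, from LSK cells (Lin-Sca1+cKit+ stem and progenitor cells), also with 2 libraries per genotype. Since the cell types differ, the assays were not joined into a single test.

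A ribosome holds 1 copy of nearly every ribosomal protein, so these genes are expressed at high levels and tend to move together. Their mRNAs begin with a C and a run of pyrimidines, the 5′ terminal oligopyrimidine (TOP) tract, through which mTOR and LARP1 control translation. Developing lymphocytes depend on ribosome supply: loss of Rpl22 disturbs lymphoid development, and Rpl5 and Rpl11 bind Mdm2 and so tie ribosome assembly to p53.

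RefSeq promoter windows (GRCm38.p6, 250 bases before to 50 after the start) were present for 61 of the 82 members. A C followed by at least 4 pyrimidines stood exactly at the annotated start in 13 of them (21.3%), against 813 of 27025 genes (3.01%), and within 10 bases of the start in 38 (62.3%), against 34.4% of all genes. The letters below run 5′ to 3′ on the gene strand, the annotated start is base 16, and capitals mark the longest run of C and T within reach of it. Rps6 (the S6 kinase substrate), Rplp2 (stalk), Rpl28 and Rpl38 are shown because they have the tract at the start, and Rplp0 (stalk), Rpl5 and Rps4x because no run longer than 5 bases lay within these windows.
Rps6, chr4:86857353-86857382, minus strand: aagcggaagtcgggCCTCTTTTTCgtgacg
Rplp2, chr7:141447636-141447665, plus strand: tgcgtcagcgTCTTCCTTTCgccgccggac
Rpl28, chr7:4792950-4792979, plus strand: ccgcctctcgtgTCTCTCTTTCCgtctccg
Rpl38, chr11:114668565-114668594, plus strand: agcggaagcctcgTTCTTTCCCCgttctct
Rplp0, chr5:115559452-115559481, plus strand: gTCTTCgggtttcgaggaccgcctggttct
Rpl5, chr5:107900513-107900542, plus strand: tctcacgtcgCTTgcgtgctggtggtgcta
Rps4x, chrX:102189377-102189406, minus strand: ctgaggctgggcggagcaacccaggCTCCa
A run of at least 8 pyrimidines was found in 44.3% of the members and in 13.9% of all genes. Annotated starts can lie several bases from the start used in these cells, so a missing tract says only that these letters are not in this window.

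Other short motifs were searched on both strands of the same 300-base windows. CCGGAA, the core of ETS family sites, was present in 33 of 61 members (54.1%) and in 16.7% of all genes. GGGCGG, the Sp1 core, was present in 63.9% and 38.2%, and AAGATGG, the YY1 core, in 16.4% and 7.28%. The shares were closer for CACGTG, the E-box bound by Myc (9.84% and 8.09%), and lower in members for CCAAT (31.1% and 41.1%) and TATAAA (11.5% and 15.7%). These shares describe letters and not bound sites.

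In pre-B cells the ribosomal protein mRNAs spanned about 3 orders of magnitude in level, and no member passed the test for a genotype difference. The sum over members was 19977 and 25872 TPM in WT replicates 1 and 2 and 22341 and 21630 TPM in Dido1∆E16 replicates 1 and 2. This was 2.00% and 2.59% of the library total for WT and 2.23% and 2.16% for Dido1∆E16, a mean of 2.29% ± 0.417 (SD, n = 2) against 2.20% ± 0.0503 (SD, n = 2). Both Dido1∆E16 values lay between the WT values, and an exact two-sided permutation test gave p = 1, where 0.333 is the smallest p that 2 libraries against 2 allow. Reads had been de-duplicated before quantification, which can lower the values of the most abundant transcripts, so these shares need not be the shares of mRNA molecules. The part of this step in the levels was not tested.

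**Figure D1:**
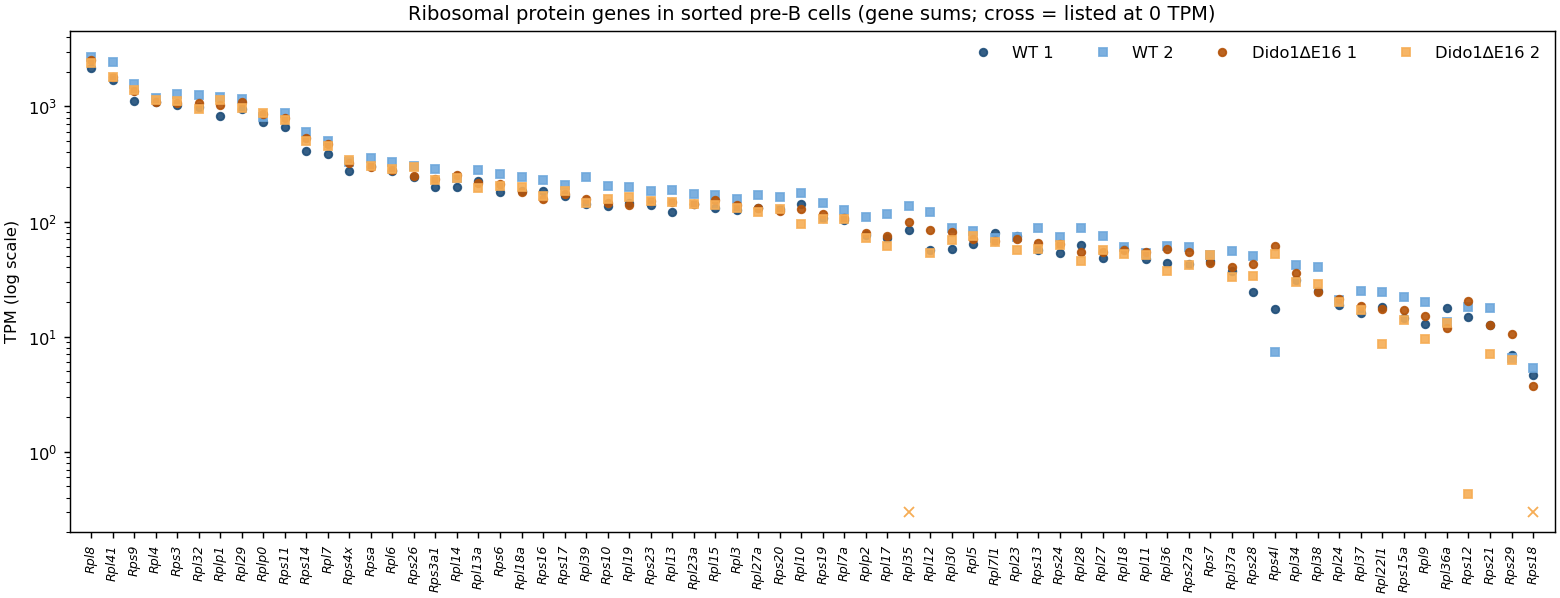
TPM (log scale) of 68 of the 70 tested ribosomal protein genes in each of the 4 pre-B libraries, ordered by mean, with crosses for genes listed at 0 TPM. WT replicate 2 is the highest point for 57 of the 68 genes drawn, while Rps4l is the member whose Dido1∆E16 points stand well above both WT points.

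Rpl8, a 60S protein close to the peptidyl transferase centre, was among the most abundant members. Rpl8 stood at 2149 and 2676 TPM in WT and 2546 and 2387 TPM in Dido1∆E16. The genotypes overlapped, with a log2 fold change (Dido1∆E16 minus WT, on log2(TPM + 1)) of 0.04 (SE 0.16).

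Rpl41, the shortest ribosomal protein, followed at 1701 and 2420 TPM in WT and 1797 and 1800 TPM in Dido1∆E16. The most abundant members also included Rps9, Rpl4, Rps3, Rpl32, Rplp1, Rpl29 and Rplp0, and their log2 fold changes lay between -0.17 (Rpl41) and 0.19 (Rplp0). Of the 100 genes with the highest mean TPM, 10 were members.

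The stalk that recruits translation factors is built from Rplp0, Rplp1 and Rplp2. Rplp0 was at 726.5 and 804.4 TPM in WT and 858.0 and 881.4 TPM in Dido1∆E16, with both Dido1∆E16 libraries above both WT libraries, but its log2 fold change of 0.19 (SE 0.11) did not pass the test (limma adjusted p = 0.67). Rplp1 was at 833.9 and 1204 TPM in WT and 1030 and 1131 TPM in Dido1∆E16. Rplp2 was at 76.9 and 110.1 TPM in WT and 79.5 and 71.6 TPM in Dido1∆E16. The genotypes overlapped for Rplp1 and for Rplp2, and the 3 stalk genes did not share a direction, with log2 fold changes of 0.11 (SE 0.22) for Rplp1 and -0.28 (SE 0.22) for Rplp2.

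Of the 70 members tested with limma, 0 were called at an adjusted p under 0.05 with a log2 fold change of 0.6 or more in size, where 0.0910% of all genes tested (9 of 9893) were. At an unadjusted p under 0.05, 1 member was higher in Dido1∆E16 and 0 were lower, while the background was 7.85% of all genes higher and 2.86% lower. The median log2 fold change was -0.12 over members and 0.07 over all genes. It was -0.15 over the 42 tested genes of the large subunit and -0.06 over the 28 of the small subunit. In all, 52 members (74.3%) had a negative log2 fold change, against 41.3% of all genes, and the quartiles of the members were -0.24 and 0.0024. Changes of at least 0.6 in either direction were seen in 6 members (8.57%) and in 24.8% of all genes.

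**Figure D2:**
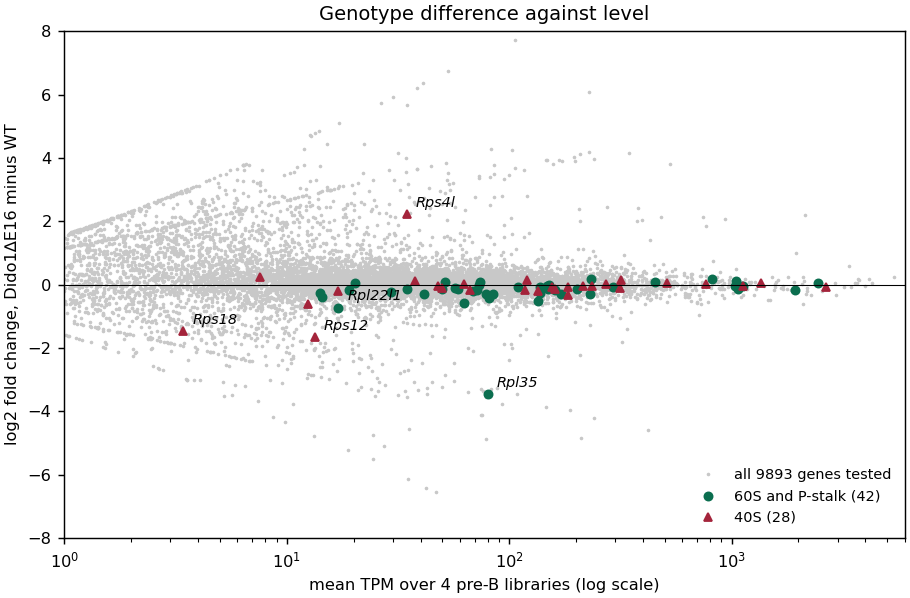
Log2 fold change (Dido1∆E16 minus WT) against mean TPM (log scale) for all 9893 genes tested in grey, with the 42 large-subunit and stalk genes as circles and the 28 small-subunit genes as triangles. Most members lie just under 0, and Rps4l, Rpl35, Rps12 and Rps18 lie apart, the last 3 with a value at or near 0 TPM in Dido1∆E16 replicate 2.

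The negative median rested on WT replicate 2. That library was the highest of the 4 in 58 of 70 members (82.9%), and the highest in 21.6% of all genes tested. Members were a median 1.31-fold higher in WT replicate 2 than in WT replicate 1, which on the log2(TPM + 1) scale is a median difference of 0.39, against -0.08 over all genes. Between the Dido1∆E16 replicates the median member differed by -0.09. Without WT replicate 2 the median log2 fold change of the members became 0.10. Without WT replicate 1 it was -0.28. With 1 WT library left, the spread within WT cannot be estimated, so no counts at a p-value are given for these fits. The direction of the group median thus turned with the WT library left out, and the difference between the WT libraries exceeded that between the genotypes.

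**Figure D3:**
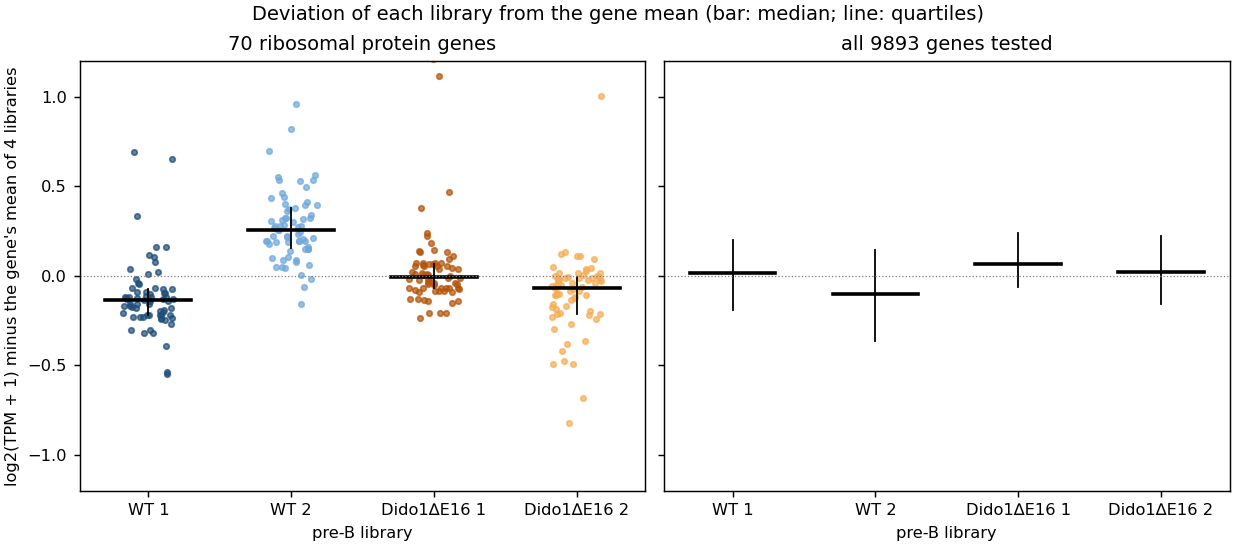
Deviation of log2(TPM + 1) in each pre-B library from the gene's mean over 4 libraries, for the 70 tested members (left, points; bars are medians and lines quartiles) and for all 9893 genes (right). The median member lies 0.26 above its mean in WT replicate 2 and 0.14 below it in WT replicate 1, and 8 of 280 points lie outside the axis.

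Markers of cycling cells moved against the ribosomal protein genes across the libraries. The 8 markers summed to 1128 and 302.5 TPM in WT and to 639.4 and 719.1 TPM in Dido1∆E16, so WT replicate 2 was lowest. Top2a, a replication and mitosis topoisomerase, was at 92.5 and 7.50 TPM in WT and 49.2 and 70.7 TPM in Dido1∆E16. The 14 markers of pre-B and pro-B cells, with 13 tested, summed to 14942 and 17134 TPM in WT and 19064 and 18312 TPM in Dido1∆E16. Igll1, Vpreb1 and Vpreb2 were higher at an unadjusted p under 0.05. The median log2 fold change of this list was 0.16, and 4 of the 13 were negative. Ebf1 was the lowest, at 12.8 and 7.32 TPM in WT and 7.51 and 3.17 TPM in Dido1∆E16 (log2 fold change -0.85, SE 0.52). Neutrophil and monocyte markers (9 of 10 with a transcript) summed to 240.5 and 2195 TPM in WT and 1060 and 9456 TPM in Dido1∆E16, and erythroid markers (7 of 10, with 1 at 0 in every library) to 300.9 and 924.2 TPM in WT and 682.2 and 8688 TPM in Dido1∆E16. Dido1∆E16 replicate 2 was thus the highest in both lists. The T and NK markers with a transcript by the authors' symbols, 3 of 8, were at 0 in every library, but by the reference annotation all 8 had a transcript, 5 were at 0 in every library and the list summed to 20.4 to 29.2 TPM, most of it from Lck. The plasma and switched B cell markers (4 of 6 by the authors' symbols) summed to 223.7 to 279.9 TPM. Within that list Sdc1 was at 121.3 and 102.4 TPM in WT and 64.4 and 57.0 TPM in Dido1∆E16, and Ighg2b, by the reference annotation, at 4.83 and 0 TPM in WT and 66.7 and 47.1 TPM in Dido1∆E16. The part of cell composition and of the cell cycle in the ribosomal protein values was not tested, and in bulk samples fewer cells of a type and less RNA per cell cannot be told apart.

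The targeted gene was checked by its transcripts. The 16-exon transcript of Dido1 was at 35.7 and 35.0 TPM in WT and 14.9 and 19.4 TPM in Dido1∆E16. A 15-exon transcript was at 8.44 and 1.01 TPM in WT and 65.2 and 67.4 TPM in Dido1∆E16. These values are estimates for whole transcripts. Coverage of the last exon alone was not tested, so these values do not measure how complete the deletion was. The paper reports a nearly complete loss of the floxed exon from the DNA of mutant LSK cells. It also lists a transcript of the targeted gene as strongly lower in mutant pre-B cells. Summed base coverage of the RNA libraries ranged from 1121 to 1635.3 megabases, and neither the labels nor the files give read counts, so no counting interval is given. The study describes the libraries of both assays as biological replicates, those of RNA from pools of mice. The p-values measure the spread between these libraries.

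Rps4l had the largest increase of any member tested. It lies on chromosome 6 (chr6:148354656-148355598, plus strand, mm10) and is annotated as a processed copy of a 40S gene. Rps4l was at 17.5 and 7.36 TPM in WT and 61.1 and 52.8 TPM in Dido1∆E16, so both Dido1∆E16 libraries lay above both WT libraries. The log2 fold change was 2.22 (SE 0.45), with an unadjusted p = 0.00876 and a limma adjusted p = 0.30 over all genes, which is not a call. Its X-linked relative Rps4x, which codes for the 40S protein itself, was at 274.1 and 327.3 TPM in WT and 325.6 and 340.6 TPM in Dido1∆E16, and its log2 fold change was 0.15 (SE 0.14). The 941 bases of the Rps4l transcript aligned to the Rps4x mRNA over 814 bases with 79.7% identity, so reads of the 2 genes differ at many positions. The search for copies described below also found 1 copy of Rps4l outside its own locus. That copy was closer than Rps4x, at 93.5% identity, and the part of its reads in the Rps4l values was not tested.

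Rpl22 and Rpl22l1 are paralogs of the large subunit, and Rpl22 protein is known to hold down Rpl22l1 mRNA. By the gene symbols of the authors' tables Rpl22 was listed at 0 TPM in every library. Mapped through the reference annotation, Rpl22 was at 149.8 and 181.9 TPM in WT and 163.6 and 137.4 TPM in Dido1∆E16, with overlapping genotypes and a log2 fold change of -0.14. Rpl22l1 was at 18.1 and 24.2 TPM in WT and 17.2 and 8.67 TPM in Dido1∆E16. Both Dido1∆E16 libraries lay below WT, but the log2 fold change of -0.73 (SE 0.40) did not pass the test (limma adjusted p = 0.64), and it was -0.27 without Dido1∆E16 replicate 2.

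The other paralog pairs were also read. Rpl3, a core 60S protein, was at 127.1 and 157.3 TPM in WT and 138.6 and 130.2 TPM in Dido1∆E16. Its muscle paralog Rpl3l was listed at 0 TPM by the authors' tables. By the reference annotation Rpl3l was at 3.38 and 4.35 TPM in WT and 9.53 and 8.12 TPM in Dido1∆E16. In that mapping its log2 fold change was 1.02, with an unadjusted p = 0.0230 and a limma adjusted p = 0.34, which is not a call. Rpl7l1, a relative of Rpl7, was at 80.2 and 71.7 TPM in WT and 68.3 and 66.6 TPM in Dido1∆E16, while Rpl7 stood at 382.5 and 498.3 TPM in WT and 468.0 and 454.5 TPM in Dido1∆E16. Neither Rpl7l1 (log2 fold change -0.17, SE 0.13) nor Rpl7 (0.08, SE 0.17) passed the test. Rpl10l and Rpl39l, which replace X-linked genes in male germ cells, were at or near 0 in all libraries, with a highest value of 0.102 TPM for Rpl10l. Their X-linked relative Rpl39 was at 142.0 and 243.1 TPM in WT and 157.7 and 144.1 TPM in Dido1∆E16, where the genotypes overlapped.

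Rpl10, X-linked and part of the last steps of 60S maturation, was at 142.3 and 176.0 TPM in WT and 127.9 and 94.8 TPM in Dido1∆E16, with both Dido1∆E16 libraries below WT. Its log2 fold change was -0.52 (SE 0.22) and its unadjusted p 0.0773 in limma. Rpl28, of the 60S, was at 62.6 and 88.2 TPM in WT and 54.6 and 45.3 TPM in Dido1∆E16, also without overlap, with a log2 fold change of -0.57 (SE 0.23). Rpl13a, known for interferon-linked translational control, was at 225.4 and 283.1 TPM in WT and 214.1 and 196.9 TPM in Dido1∆E16. None of these passed the adjusted test, in which Rpl28 stood at 0.53, Rpl10 at 0.54 and Rpl13a at 0.64.

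Values of both Dido1∆E16 libraries lay below both WT libraries in 12 members (17.1%), against 15.0% of all genes. They lay above both in 3 members (4.29%), namely Rps4l, Rplp0 and Rpl14, against 26.7% of all genes. Rpl14, of the 60S, was at 198.0 and 239.8 TPM in WT and 254.4 and 240.9 TPM in Dido1∆E16. The share below WT was close to the background.

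**Figure D4:**
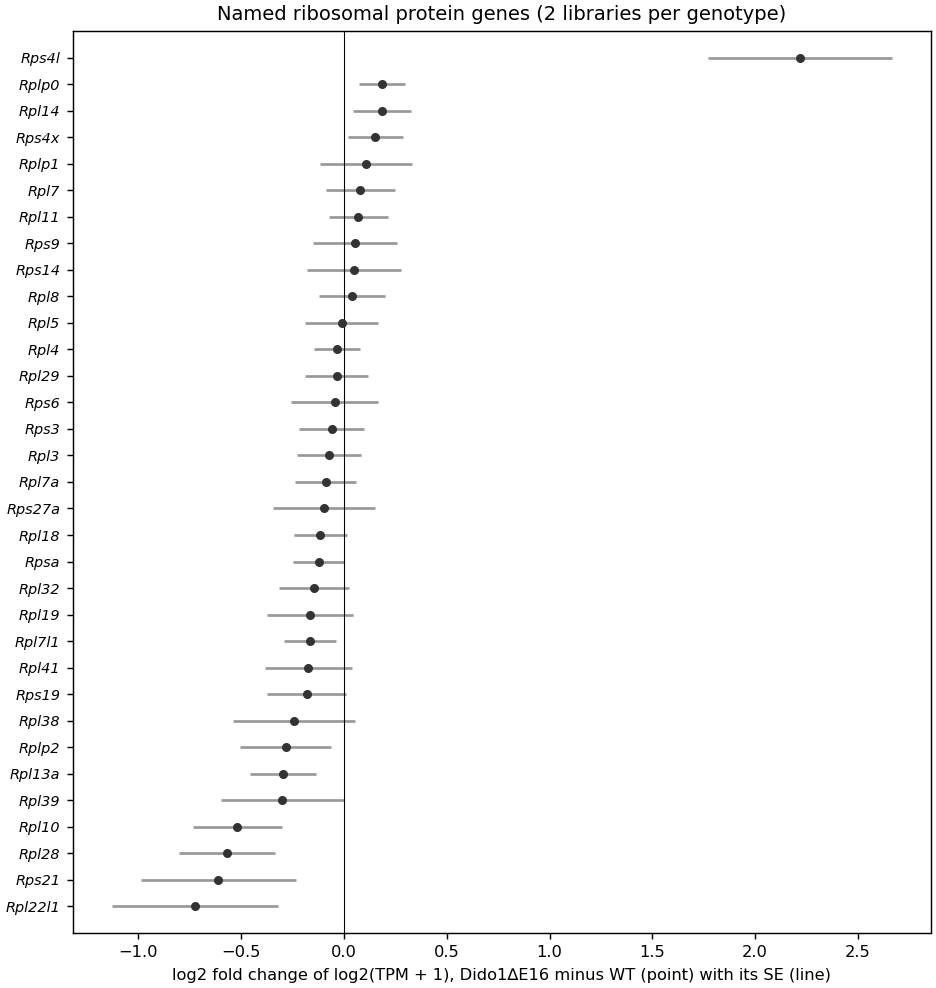
Log2 fold change of log2(TPM + 1), Dido1∆E16 minus WT, with its SE for named ribosomal protein genes, 2 libraries per genotype. Rps4l stands at 2.22, the other genes drawn run from Rpl22l1 (-0.73) to Rplp0 (0.19), and Rpl35 and Rps12, which fell to 0 or near it in 1 library, are not drawn.

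Rpl5, Rpl11, Rps19 and Rps14, which are tied to ribosomopathy or to p53, overlapped between the genotypes. Rpl5 was at 64.0 and 83.3 TPM in WT and 70.7 and 74.1 TPM in Dido1∆E16, and Rpl11 at 46.9 and 53.7 TPM in WT and 54.0 and 51.4 TPM in Dido1∆E16. Rps19, mutated in Diamond-Blackfan anemia, was at 107.9 and 144.6 TPM in WT and 115.9 and 104.3 TPM in Dido1∆E16. Rps14, linked to a form of myelodysplastic syndrome, was at 409.5 and 604.9 TPM in WT and 530.3 and 499.2 TPM in Dido1∆E16. The log2 fold changes of these 4 genes were -0.01 (SE 0.18) for Rpl5, 0.07 (SE 0.14) for Rpl11, -0.18 (SE 0.19) for Rps19 and 0.05 (SE 0.23) for Rps14. Rps6 was at 180.3 and 258.2 TPM in WT and 213.4 and 204.7 TPM in Dido1∆E16. Rpsa, the laminin receptor precursor of the 40S, was at 306.7 and 353.5 TPM in WT and 298.1 and 306.2 TPM in Dido1∆E16, and Rpl38, linked to Hox mRNA translation, at 24.7 and 40.3 TPM in WT and 24.4 and 28.9 TPM in Dido1∆E16. Genotypes overlapped for Rps6 and Rpl38, and not for Rpsa, whose log2 fold change was -0.12 (SE 0.12).

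Zeros in single libraries made the largest negative values. Rpl35, of the 60S exit tunnel, was at 84.2 and 137.8 TPM in WT and at 98.2 and 0 TPM in Dido1∆E16. Rps12 was at 14.8 and 18.02 TPM in WT and 20.2 and 0.432 TPM in Dido1∆E16, and by the reference annotation at 30.2 and 38.3 TPM in WT and 40.6 and 12.1 TPM in Dido1∆E16. In that mapping Rpl35a was at 79.9 and 118.9 TPM in WT and 90.02 and 0 TPM in Dido1∆E16, and Rps27l at 75.8 and 0 TPM in WT and 77.4 and 0 TPM in Dido1∆E16. A value of 0 here can be a failed estimate, so these values are given as listed, although the genes of the authors' tables among them enter the counts and medians over members. Rps18, named here after its values were seen, was at 4.67 and 5.37 TPM in WT and 3.70 and 0 TPM in Dido1∆E16, and by the reference annotation at 143.8 and 195.3 TPM in WT and 151.9 and 152.6 TPM in Dido1∆E16. Dido1∆E16 replicate 2 held all but one of these zeros and was also the library with the highest erythroid and neutrophil marker sums, and the part of that in the zeros was not tested. Rps21 was at 12.6 and 17.7 TPM in WT and 12.6 and 7.03 TPM in Dido1∆E16. It did not pass the test (log2 fold change -0.61, SE 0.38, limma adjusted p = 0.67).

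The authors' tables left 12 members below the limit of the test, and the reference annotation found reads for 11 of them. Rps15 was the most abundant, at 1171 and 1627 TPM in WT and 1295 and 1240 TPM in Dido1∆E16. Rps2 was at 238.4 and 279.4 TPM in WT and 312.2 and 265.7 TPM in Dido1∆E16, Rpl26 at 115.3 and 161.6 TPM in WT and 149.2 and 144.7 TPM in Dido1∆E16, and Rpl10a at 97.4 and 128.6 TPM in WT and 106.0 and 96.9 TPM in Dido1∆E16. Rpl21 was at 54.3 and 59.1 TPM in WT and 49.5 and 49.0 TPM in Dido1∆E16, and Rps27 at 26.4 and 41.4 TPM in WT and 33.0 and 22.5 TPM in Dido1∆E16. Rps25, named here through the reference annotation only, was at 117.0 and 162.0 TPM in WT and 127.4 and 125.9 TPM in Dido1∆E16. With this mapping 82 genes were tested, the median log2 fold change was -0.12, and WT replicate 2 was the highest library in 67 of them.

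Ribosomal protein genes have many processed copies in the genome, to which reads can align. Of the 82 genes expressed by the reference annotation, 54 had at least 1 copy outside their own locus that covered 70% of the transcript at 90% identity. Rpl7a had the most, with 81 copies, followed by Rps2 with 51. Rpl8 and Rps3 had 0 such copies. Genes with at least 90% of their length in stretches of at least 50 bases at 98% identity elsewhere (24 genes) had a median of 127.6 TPM, and those with under 30% (21 genes) a median of 135.5 TPM. Their median log2 fold changes were -0.11 and -0.08. The level of genes with many copies is uncertain, since the handling of reads with several matches is not given in the sources used here.

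Other parts of the translation machinery were read from lists. Of 44 tested ribosome biogenesis genes, 2 were higher and 0 lower at an unadjusted p under 0.05, with a median log2 fold change of 0.10, where 7.85% of all genes were higher and 2.86% lower, so the count is no result about this list. These were Rrs1, at 40.7 and 42.3 TPM in WT and 59.7 and 52.9 TPM in Dido1∆E16, and Rrp12, at 6.22 and 5.38 TPM in WT and 11.2 and 9.48 TPM in Dido1∆E16. Both act in subunit assembly, and neither passed the adjusted test (limma adjusted p = 0.44 for Rrs1 and 0.47 for Rrp12). The lowest value of that list was Fbl, at 12.8 and 7.52 TPM in WT and 13.5 and 0 TPM in Dido1∆E16.

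Of 13 tested translation factors with TOP mRNAs, 0 passed an unadjusted p under 0.05, and their median was 0.06. Their ends were Eif3k, at 288.5 and 681.2 TPM in WT and 638.7 and 612.4 TPM in Dido1∆E16, and Eif4a2, at 181.5 and 237.0 TPM in WT and 164.5 and 96.2 TPM in Dido1∆E16. Of 21 tested regulators of ribosomal protein output, 1 was higher and 1 lower, against the same shares of all genes, and with so few genes nothing is read from this count. Rptor, the mTORC1 scaffold, was at 40.5 and 39.0 TPM in WT and 74.7 and 68.3 TPM in Dido1∆E16 (log2 fold change 0.83, SE 0.13, limma adjusted p = 0.27). Rps6kb2, an S6 kinase, was at 82.8 and 86.3 TPM in WT and 56.6 and 41.5 TPM in Dido1∆E16 (log2 fold change -0.79, SE 0.20, limma adjusted p = 0.38).

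Ribosomal proteins outside the symbol rule, with 3 tested, had a median log2 fold change of -0.37 and none passed. Fau, whose precursor gives a 40S protein, was at 45.9 and 69.5 TPM in WT and 46.1 and 35.1 TPM in Dido1∆E16, and Rack1, a 40S scaffold, at 1898 and 2273 TPM in WT and 2078 and 2083 TPM in Dido1∆E16. For comparison, 71 mitochondrial ribosomal protein genes had a median of -0.11, with 0 higher and 4 lower at an unadjusted p under 0.05 and 1 called, where 7.85% of all genes were higher, 2.86% lower and 0.0910% called. The called gene was Mrpl42, listed at 74.0 and 66.0 TPM in WT and at 0 TPM in both Dido1∆E16 libraries (limma adjusted p = 0.040). The call rests on these zeros, present in both mappings, and a value of 0 can be a failed estimate. The others were Mrps18c, Mrpl24 and Mrpl12. By the authors' symbols Mrps18c was also at 0 TPM in both Dido1∆E16 libraries, with a log2 fold change of -5.51. By the reference annotation it was at 55.3 and 69.0 TPM in WT and 38.4 and 26.8 TPM in Dido1∆E16 (log2 fold change -0.92). The difference between the cytosolic and mitochondrial medians was not tested.

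In LSK cells most ribosomal protein promoters were open in every library. MACS2 promoter peaks, from 1 kb before to 200 bases after the start by the authors' annotation, were found at 64 and 72 of 82 members in the WT libraries and at 63 and 58 in those of Dido1∆E16. These were 78.0% and 87.8% of the members in WT and 76.8% and 70.7% in Dido1∆E16. Among the 9893 genes tested in pre-B cells the shares were 69.2% and 81.5% in WT and 61.4% and 59.4% in Dido1∆E16. The mean of 68.0 members in WT and 60.5 in Dido1∆E16 differed by -7.5 (exact two-sided permutation p = 0.333, the smallest these libraries allow). In all, 53 members had a peak in all 4 libraries and 5 in none.

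The difference depended on the peak set. WT libraries held 27352 and 57739 MACS2 peaks and Dido1∆E16 libraries 13208 and 16329, from 10249256, 52050898, 22533077 and 44633938 tags in that order. Each library was then held to its 13208 peaks of highest score. In this set 48 and 47 members had a promoter peak in WT and 63 and 55 in Dido1∆E16, so the order turned. It turned for all genes tested as well, with shares of 49.8% and 50.9% in WT and 61.4% and 54.0% in Dido1∆E16. With HOMER peaks the numbers were 65 and 71 in WT and 66 and 71 in Dido1∆E16. The HOMER shares of all genes tested were 67.2% and 81.5% in WT and 64.5% and 69.0% in Dido1∆E16. With either program and either number of peaks, the share of members with a peak was above that of all genes tested in every library.

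**Figure D5:**
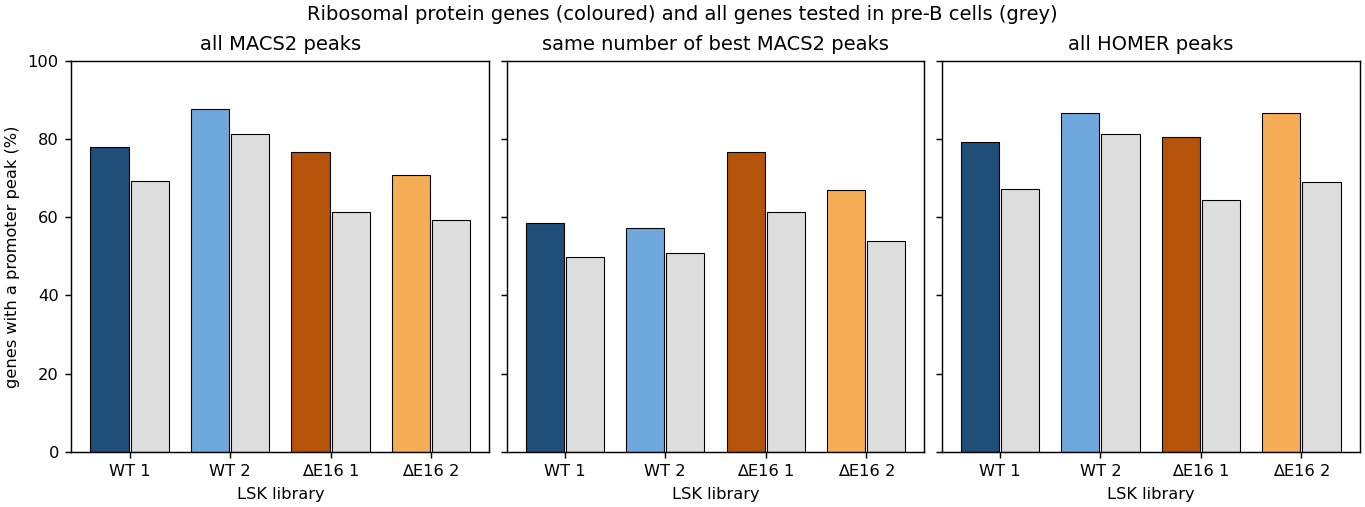
Percent of the 82 ribosomal protein genes (coloured) and of the 9893 genes tested in pre-B cells (grey) with a promoter peak in each LSK library, for all MACS2 peaks, for the 13208 MACS2 peaks of highest score per library and for all HOMER peaks. Members lie above all genes in every library, and the order of WT and Dido1∆E16 depends on the peak set.

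Rpl8, Rpl19 and Rps4x had a promoter peak in both WT libraries and in neither Dido1∆E16 library. They were 3 of the 62 members with a peak in both WT libraries (4.84%), against 14.9% of all genes. The Rpl8 peaks scored 33 and 47 in WT, where the score is the MACS2 value of the authors' files, and the WT replicate 2 peak lay at chr15:76903895-76904420. The Rpl19 peaks scored 24 and 37 (chr11:98026555-98027112 in WT replicate 2), and the Rps4x peaks 27 and 71 (chrX:102188797-102189533). Among all promoter peaks of their library, these scores stood at percentiles of 30.6 and 24.7 for Rpl8, 15.4 and 17.2 for Rpl19 and 20.4 and 40.3 for Rps4x. With HOMER peaks 0 members had this pattern, against 8.21% of all genes. In pre-B cells Rpl8 was among the most abundant members in every library.

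Rpl35a was the one member with a peak in both Dido1∆E16 libraries and neither WT library, with scores of 17 and 32. Its WT peaks exist but carry the symbol of the neighbouring Iqcg. Rpl18, Rpl7a and Rps27a had no promoter peak under their own symbol, and the peaks at their start sites carried the symbols Sphk2, Med22 and Clhc1. When a peak at any start site of the gene counted, whatever its symbol, 71 and 79 members had one in WT and 68 and 65 in Dido1∆E16, and Rpl10l and Rpl3l, of germ cells and muscle, alone had none. This count was chosen after seeing the data.

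Peak strength was ranked within each library. The median member stood at percentile 53.5 and 61.8 of the promoter peak scores in WT and 51.9 and 45.6 in Dido1∆E16, and the difference of -8.85 between the means did not pass (exact two-sided permutation p = 0.333). The genotypes also differed in the number of promoter peaks ranked, from 7766 to 13038 per library, and its part in this difference was not tested. In this ranking the 6026 genes with a promoter peak in all 4 libraries had a median difference of -10.1. The 53 members among them had one of -9.58, so the lower rank in Dido1∆E16 was not particular to members. Among the 6026 genes with a promoter peak in all 4 libraries, ranked against each other, the 53 members had median percentiles of 52.8 and 42.7 in WT and 45.5 and 39.98 in Dido1∆E16, which overlap (exact two-sided permutation p = 0.667). In that ranking 8 members (15.1%) lay lower in both Dido1∆E16 libraries, against 17.0% of the 6026 genes, and 9 members (17.0%) lay higher, against 17.6%. Both shares lay near the background.

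The promoter peak of Rpl22l1 in LSK cells scored 126 and 260 in WT and 85 and 90 in Dido1∆E16, and Rps19 87 and 241 in WT and 77 and 32 in Dido1∆E16. WT replicate 2 was highest for both genes, and it also had the highest median score over all promoter peaks, at 89 against 48 in WT replicate 1 and 50 and 37 in Dido1∆E16. By percentile within the library, Rpl22l1 stood at 91.8 and 93.8 in WT and 79.3 and 91.6 in Dido1∆E16. Rps19 stood at 79.6 and 91.9 in WT and 74.5 and 40.8 in Dido1∆E16. Ranked only among genes with a promoter peak in every library, the genotypes overlapped for both genes. In that ranking Rps19 was at 69.3 and 83.7 in WT and 69.8 and 32.2 in Dido1∆E16. The promoter of Rps4l had a peak only in WT replicate 2, with a score of 37.

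Most member peaks covered the start site. In WT 63 of 64 and 72 of 72 member peaks did, and in Dido1∆E16 59 of 63 and 54 of 58, so the shares were 98.4%, 100%, 93.7% and 93.1% against 87.8% to 90.3% of all promoter peaks. The median peak centre lay at -37.5 and -14.5 bases from the start in the WT libraries and at -51.5 and -3.5 bases in those of Dido1∆E16, where negative is upstream. Median widths were 539.5 and 740.0 bases in WT and 467.0 and 451.0 bases in Dido1∆E16, against those of all promoter peaks of the same libraries (557.0, 779.0, 504.0 and 517.0 bases). Across the 53 members with a peak in all libraries, Spearman's rho between the mean percentile in LSK cells and the mean TPM in pre-B cells was -0.16, given as a description over genes that share libraries.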

How the data were processed

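RNA-seq covered 2 WT and 2 Dido1∆E16 pre-B libraries and Omni-ATAC-seq 2 WT and 2 Dido1∆E16 LSK libraries, grouped by their labels. Per the study's methods and the submitters' processing notes, the authors aligned reads to mm10 with BWA 0.7.15, removed duplicates and ran StringTie 2.0 on UCSC knownGene, and the deposited TPM and FPKM values per transcript are attributes of these files. TPM was summed per gene symbol, with the symbols of the authors' transcript table, or with a reference annotation as an alternative. Genes with a mean of at least 1 TPM were tested on log2(TPM + 1) with limma 3.58.1 (R 4.3.3, trended eBayes), which was tested on simulated data. The authors called peaks per library with MACS2, whose deposited score was ranked within each library, and with HOMER. From the authors' log2 tag count table only the tag totals of its header were read. Columns of fold changes, log CPM and p-values from the authors' own comparisons were not used.

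Named genes were the 10 most abundant members, the 5 highest and 5 lowest log2 fold changes at a mean of at least 10 TPM, members at an unadjusted p under 0.05, paralog pairs, a list of members with known roles, members whose promoter peaks separated the genotypes or were absent, and members listed at 0 TPM. Genes of other lists were named at an unadjusted p under 0.05 or as the ends of the list. Members and lists were chosen with earlier results of these data known. Copies were searched with blastn 2.17.0. Alternatives were FPKM, other pseudocounts, filters, scalings and annotations, single transcripts, other peak sets, a replicate block and leaving out each library. Some named items are not reported here.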

Additional observations from a re-analysis of the deposited data

How the results depend on the processing

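No ribosomal protein gene was called by limma in any alternative run. With all libraries kept, the count over all genes ranged from 0 to 44. At an unadjusted p under 0.05 there were 2 members instead of 1 with the reference annotation, and 2 when members at 0 TPM in any library were also left out, an alternative chosen after seeing the data. Leaving out 1 library gave 0 to 17 members, a median log2 fold change of -0.28 to 0.10 and a difference in the share of library TPM of -0.389 to 0.201 percentage points. Both signs turned without WT replicate 2. With a replicate block, 0 members were called and 1 had an unadjusted p under 0.05, and 0 of all genes were called instead of 9. The replicate numbers are not known to mark a shared litter or day, and the deviations of same-numbered libraries correlated at 0.05 over all genes.

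The difference in members with a promoter peak, -7.5, was 0.5 with HOMER peaks, 11.5 with the same number of peaks and -11.5 to -3.5 without 1 library. The 3 members with peaks in both WT libraries and neither Dido1∆E16 library became 3 to 9 without 1 library. That count was 0 with HOMER peaks and 0 with the same number of peaks. In the latter set Rpl8, Rpl19 and Rps4x had no promoter peak in any library, so this 0 is no check of the pattern. The share of all genes with this pattern was 8.21% with HOMER peaks and 3.04% with the same number of peaks. The percentile difference was -12.99 to -4.71 without 1 library. Of 407 recomputed log2 fold changes of 37 named genes, 33 had the other sign, and none was called. In the simulation of this comparison over 9893 genes, 0% of changed genes were called at a log2 change of 1 and 53.5% at 2. The changed genes were drawn from all genes above a set level and not from members, so it gives no detection limit for single members. A missing call therefore does not show that a member was unchanged.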
